A study of Mus musculus with 6 samples.

Results

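The 9 genes described here encode the hypoxia-inducible factors (HIFs) and the proteins that tie them to oxygen. They were chosen by symbol, *Hif1a*, *Epas1*, *Hif3a*, *Arnt*, *Vhl*, *Egln1*, *Egln2*, *Egln3* and *Hif1an*, out of 55416 genes in the count table. Each symbol matched a single gene. All 9 passed the filter on low counts (at least 10 counts in at least 2 libraries), which kept 16296 genes. They were measured by RNA-Seq in coronary endothelial cells (ECs) sorted at E15.5 from digested heart ventricles, in 3 libraries of ControlΔEC embryos and 3 libraries of Wt1KOΔEC embryos. ControlΔEC embryos were Pdgfb-CreERT2/+, Wt1 +/+ and R26-mTmG/+, and Wt1KOΔEC embryos were Pdgfb-CreERT2/+, Wt1 LoxP/LoxP and R26-mTmG/+. Both groups therefore carried the tamoxifen-dependent Cre under Pdgfb control and the mTmG reporter, and both were exposed to tamoxifen (75 mg/kg, given to the dam) over E11.5-13.5. The cross gives embryos of both genotypes in the same litter, but the litter of each library is not stated. Library names start with AT for all ControlΔEC and AU for all Wt1KOΔEC libraries. What these prefixes stand for is not stated, and anything tied to them cannot be told apart from genotype. The sort took the cells with membrane GFP (mGFP), that is, the cells in which Cre had recombined the reporter. The mark reports recombination of the reporter and not of *Wt1* itself.

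Cells sense oxygen through the stability of the HIF alpha subunits. When oxygen is present, EGLN prolyl hydroxylases modify the alpha subunit, the VHL ubiquitin ligase binds the modified protein and the proteasome degrades it. When oxygen falls, the alpha subunit escapes this step, pairs with ARNT and activates genes of glycolysis, angiogenesis and cell survival. This control acts mostly on protein, which these data do not measure; the values below are transcript levels. *Epas1*, which encodes HIF-2 alpha, is named for its high expression in endothelium.

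The libraries held between 26037324 and 44779020 expected counts, so that 3 counts, taken as the floor, correspond to 0.0608 to 0.119 CPM (the usual CPM unit, with library sizes scaled by TMM). The targeted gene, *Wt1*, was at 109.5 to 149 CPM in ControlΔEC libraries and at 14.0 to 21.3 CPM in Wt1KOΔEC libraries. All 8 endothelial markers examined were detected, with summed levels of 4538 to 5767 CPM in ControlΔEC and 4685 to 5403 CPM in Wt1KOΔEC libraries. Transcripts of other cell types were present too and some differed between the genotypes. The 7 mural cell markers summed to 464 to 628 CPM in ControlΔEC and 321 to 377 CPM in Wt1KOΔEC, and the 6 macrophage markers to 218 to 674 CPM and 163 to 223 CPM. The 6 fibroblast markers summed to 584 to 866 CPM in ControlΔEC and 1154 to 1364 CPM in Wt1KOΔEC, and 12 genes of the dissociation response to 2551 to 3214 CPM and 3647 to 4685 CPM. The 8 cardiomyocyte, 6 epicardial, 7 erythroid and 4 endocardial markers summed in ControlΔEC to 198 to 272, 11.49 to 17.8, 6565 to 14338 and 233 to 340 CPM, and in Wt1KOΔEC to 168 to 361, 17.3 to 49.3, 5105 to 8490 and 347 to 410 CPM. No marker of these lists was at 0 in all 6 libraries. The part of these cells in the results below was not tested. In such sorted samples, fewer cells of a type and less RNA per cell cannot be told apart.

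Per kb of exon, the order of the 9 genes in ControlΔEC was led by the alpha subunits. *Epas1* had the highest level, at 93.8 ± 11.6 CPM per kb, followed by *Hif1a* at 41.0 ± 3.71 CPM per kb (SD, n = 3 libraries, as for all levels given as ±). *Egln2* at 7.89 ± 2.77, *Arnt* at 7.25 ± 2.06, *Vhl* at 6.76 ± 0.867 and *Egln3* at 6.02 ± 2.61 CPM per kb came next, and the ranges of each of these overlapped with its neighbour in the order. *Hif3a* was at 3.06 ± 0.267 and *Hif1an* at 2.67 ± 1.06 CPM per kb, again with overlapping ranges. *Egln1* was the lowest, at 0.928 ± 0.225 CPM per kb. In Wt1KOΔEC the order was the same except that *Egln3*, at 12.4 ± 2.25 CPM per kb, came right after *Hif1a*, above *Egln2* at 8.39 ± 0.911 CPM per kb, and their ranges did not overlap. This order rests on the division by length. Without it, 5 of the 9 genes in ControlΔEC and 4 in Wt1KOΔEC had another place, and *Egln3* was below *Egln2* in Wt1KOΔEC too, at 33.4 against 65.4 CPM. The levels per kb use all annotated exons of a gene, so a gene whose long exons are seldom used is understated.

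**Figure D1:**
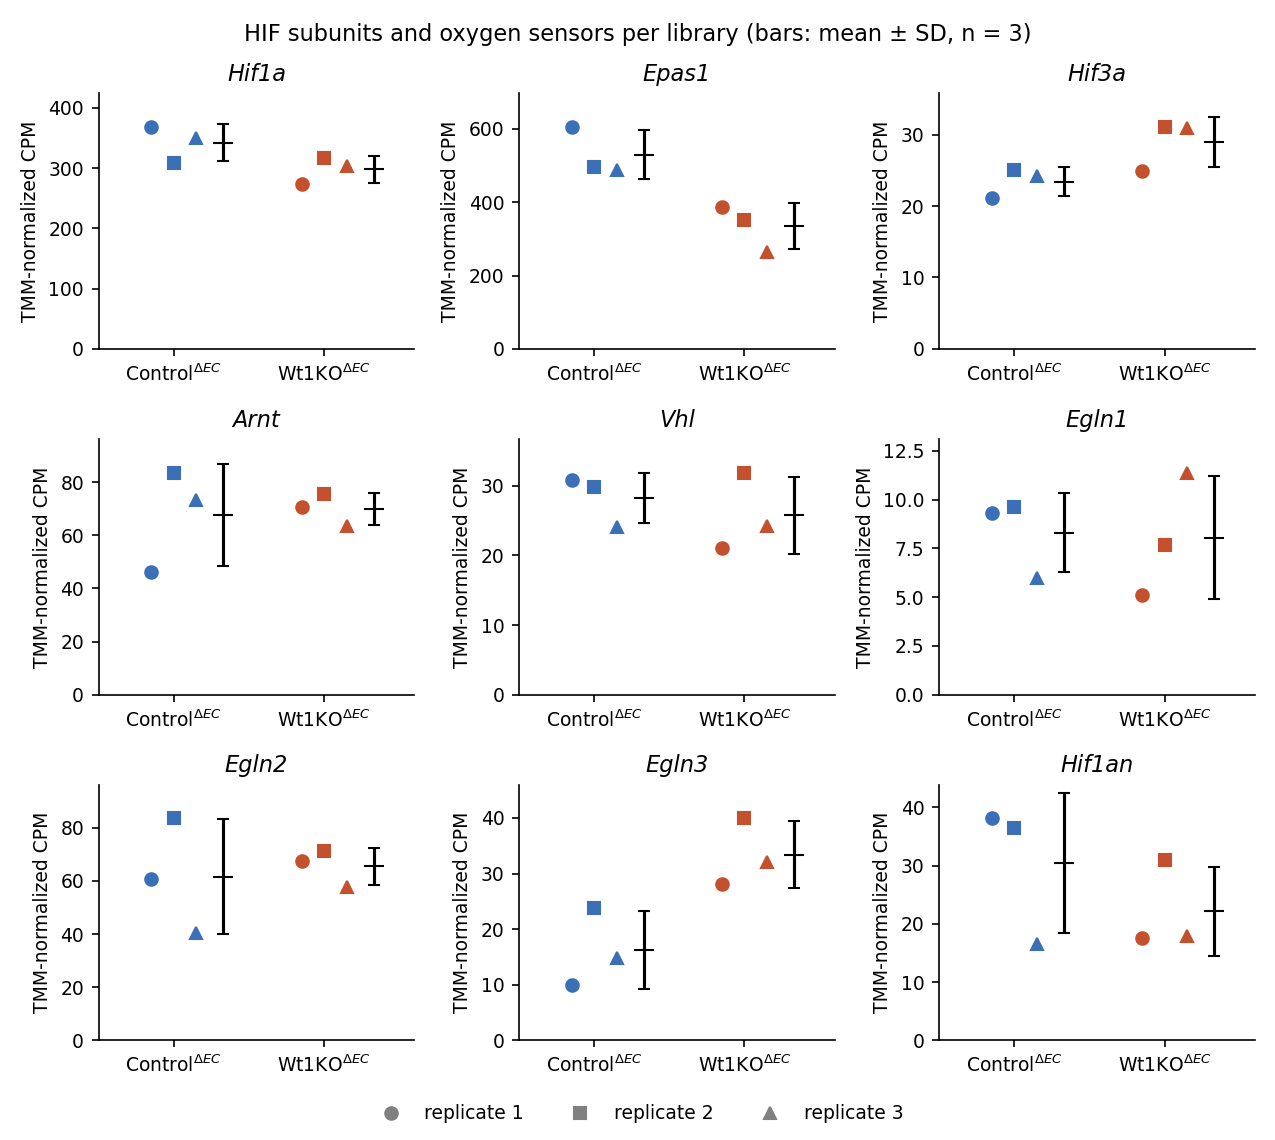
TMM-normalized CPM (y axis, from 0) of the 9 genes in each library, with ControlΔEC in blue and Wt1KOΔEC in red; symbols mark the replicate and the black bars the mean ± SD of 3 libraries. The genotypes are separate for *Epas1*, which is lower in all 3 Wt1KOΔEC libraries, and for *Egln3*, which is higher in all 3, and they overlap for the other 7 genes.

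Between the genotypes, none of the 9 genes was a differentially expressed gene (DEG; adjusted p under 0.05 and absolute log2 fold change above 0.58) by edgeR's quasi-likelihood test. That test called 0.0736% of all genes tested, 0.0491% as higher and 0.0245% as lower in Wt1KOΔEC. At an unadjusted p under 0.05 there were 2 of the 9, *Egln3* as higher and *Epas1* as lower, against 13.1% of all genes tested (5.96% higher and 7.12% lower). DESeq2, which called 4.83% of the genes it tested (2.20% higher and 2.63% lower), had 1 of the 9 as a DEG, *Epas1*, which was lower. The study, which used DESeq2 on these libraries, also reports *Epas1* as downregulated. *Egln3* and *Epas1* were the only genes of the 9 whose libraries did not overlap between genotypes, where 19.3% of all genes tested did not (Wt1KOΔEC above for 10.4% and below for 8.95%). Of the 9, 4 had a positive and 5 a negative log2 fold change, with a median of -0.05, and the median over all genes tested was -0.03. With a library left out, 2 of the 9 had an unadjusted p under 0.05, or 3 without ControlΔEC replicate 3. Over all genes tested, this number ran from 1339 of 15884 (without Wt1KOΔEC replicate 1) to 2456 of 15675 (without ControlΔEC replicate 3).

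*Hif1a* (ENSMUSG00000021109.14; GRCm39 chromosome 12, 73948149 to 73996321) encodes the widely expressed alpha subunit HIF-1 alpha. It was at 369, 308 and 350 CPM in ControlΔEC replicates 1, 2 and 3, and at 274, 317 and 303 CPM in Wt1KOΔEC replicates 1, 2 and 3. The ranges overlapped, since Wt1KOΔEC replicate 2 lay above ControlΔEC replicate 2. The fold change (Wt1KOΔEC over ControlΔEC) came to -0.20 on the log2 scale with a standard error of 0.15 (adjusted p = 0.645, edgeR), and the 95% interval ran from 0.692-fold to 1.10-fold. This interval was the narrowest of the 9 genes and lay inside the limit used for DEGs in either direction, with a low end of -0.53 on the log2 scale. Intervals are given for the main fit only, so this was not examined in the alternatives. With scaling by library size only, the log2 fold change was -0.35.

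*Epas1* (ENSMUSG00000024140.11; GRCm39 chromosome 17, 87061087 to 87140838) was at 606, 497 and 487 CPM in ControlΔEC replicates 1, 2 and 3. In Wt1KOΔEC replicates 1, 2 and 3 it was at 388, 353 and 266 CPM. Every Wt1KOΔEC library lay below every ControlΔEC library, with replicate 3 the lowest. This amounts to a log2 fold change of -0.66 with a standard error of 0.18, or 0.633-fold with a 95% interval from 0.476-fold to 0.841-fold. The unadjusted p was 0.00538 and the adjusted p 0.217 (edgeR). DESeq2 gave an adjusted p of 0.0149, and over all alternatives the adjusted p lay between 0.0149 and 0.469. Leaving out any 1 library gave values from -0.78 (without Wt1KOΔEC replicate 1) to -0.52 (without Wt1KOΔEC replicate 3). *Epas1* is also expressed by mural cells such as pericytes, and 4 of 6 mural cell markers tested were lower at an unadjusted p under 0.05 (7.12% of all genes tested). These were *Pdgfrb*, *Cspg4*, *Rgs5* and *Abcc9*, with log2 fold changes of -1.25, -1.22, -2.50 and -0.41 in these libraries. The others tested, *Kcnj8* and *Acta2*, had -0.35 and -0.04. The part of mural cells in the values of *Epas1* was not tested.

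*Hif3a* (ENSMUSG00000004328.16; GRCm39 chromosome 7, 16764918 to 16796352) encodes a further alpha subunit, some of whose splice forms oppose the other alpha subunits. It was at 21.1, 25 and 24.2 CPM in ControlΔEC replicates 1, 2 and 3 and at 24.8, 31.1 and 30.9 CPM in Wt1KOΔEC replicates 1, 2 and 3. Wt1KOΔEC replicate 1 lay inside the ControlΔEC range and the other 2 above it. On the log2 scale the fold change was 0.31 with a standard error of 0.21 (adjusted p = 0.618, edgeR), and the counts of a gene do not separate its splice forms.

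The balance among the alpha subunits was examined inside each library, where it does not depend on scaling between libraries. There were 1.64, 1.61 and 1.39 *Epas1* counts per *Hif1a* count in ControlΔEC replicates 1, 2 and 3, and 1.41, 1.11 and 0.877 in Wt1KOΔEC replicates 1, 2 and 3. In Wt1KOΔEC replicate 3 the order of the counts was thus the opposite of that in the other 5 libraries. The mean log2 ratio was 0.63 ± 0.13 in ControlΔEC and 0.15 ± 0.35 in Wt1KOΔEC, a difference of -0.47 (exact permutation test, two-sided p = 0.2, where 3 libraries against 3 cannot go below 0.1). The ranges overlapped, and the difference was -0.30 without Wt1KOΔEC replicate 3. As a share of the counts per kb of the 3 alpha subunits, *Epas1* took 67.9 ± 2.04% in ControlΔEC and 59.7 ± 5.86% in Wt1KOΔEC, *Hif1a* 29.8 ± 1.86% and 36.4 ± 5.10%, and *Hif3a* 2.25 ± 0.403% and 3.87 ± 0.762%. The share of *Epas1* in ControlΔEC replicate 3, 65.6%, and in Wt1KOΔEC replicate 1, 65.5%, were next to each other.

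*Arnt* (ENSMUSG00000015522.19; GRCm39 chromosome 3, 95341365 to 95404551) encodes the beta subunit that pairs with the alpha subunits. It was at 46.4, 83.6 and 73.3 CPM in ControlΔEC replicates 1, 2 and 3 and at 70.7, 75.5 and 63.6 CPM in Wt1KOΔEC replicates 1, 2 and 3. The Wt1KOΔEC libraries lay inside the ControlΔEC range, whose low end was replicate 1. The fitted log2 fold change of 0.05 (standard error 0.22, adjusted p = 0.970, edgeR) had no fixed direction, being -0.17 without ControlΔEC replicate 1 and 0.23 without ControlΔEC replicate 2. *Hif1a* and *Epas1* together had 30.5, 14.0 and 16.4 times the level of *Arnt* per kb in ControlΔEC replicates 1, 2 and 3, and 13.4, 12.4 and 12.3 times in Wt1KOΔEC replicates 1, 2 and 3 (exact permutation test, two-sided p = 0.1, the lowest possible with 3 against 3). The high ratio of ControlΔEC replicate 1 came with the lowest level of *Arnt* among the 6 libraries. ControlΔEC replicate 2 and Wt1KOΔEC replicate 1 were next to each other, and the test of this ratio was not among those set beforehand.

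**Figure D2:**
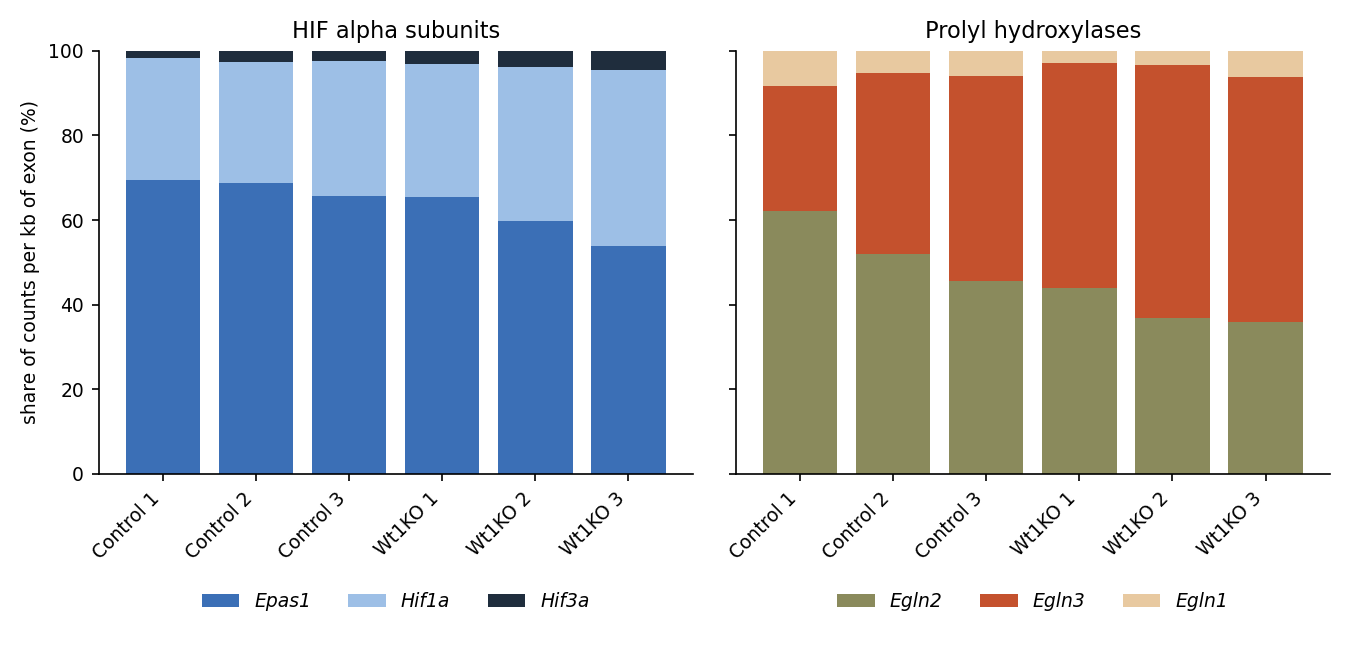
Share (y axis, % of counts per kb of exon) of each HIF alpha subunit, left, and of each EGLN prolyl hydroxylase, right, in each of the 6 libraries. *Epas1* takes between 53.8% and 69.6% of the alpha subunits, and *Egln3* between 29.6% and 48.4% of the hydroxylases in ControlΔEC and between 53.1% and 59.8% in Wt1KOΔEC.

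The 3 prolyl hydroxylases differ in where they act: EGLN1 (PHD2) is the main oxygen sensor of most tissues, EGLN2 (PHD1) is largely nuclear, and EGLN3 (PHD3) is strongly induced by HIF and so reports its activity while limiting it. *Egln1* is a HIF target as well. HIFs bind the core letters ACGTG or GCGTG, and the 250 bases before the start of the 3 hydroxylase genes are shown so that these letters can be seen; capitals mark each ACGTG or GCGTG and their reverse complements CACGT or CACGC. The sequences are RefSeq's on GRCm38.p6, 5′ to 3′ on the strand of the gene, which is the minus strand for all 3: chr8:124949255-124949504 for *Egln1*, chr7:27166803-27167052 for the first of the windows of *Egln2*, and chr12:54203875-54204124 for *Egln3*.
Egln1: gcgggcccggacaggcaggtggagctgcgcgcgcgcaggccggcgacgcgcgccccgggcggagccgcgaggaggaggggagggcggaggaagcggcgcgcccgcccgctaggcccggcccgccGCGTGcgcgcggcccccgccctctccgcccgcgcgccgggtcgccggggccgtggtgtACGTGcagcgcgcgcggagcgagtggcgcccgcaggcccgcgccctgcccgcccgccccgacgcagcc
Egln2: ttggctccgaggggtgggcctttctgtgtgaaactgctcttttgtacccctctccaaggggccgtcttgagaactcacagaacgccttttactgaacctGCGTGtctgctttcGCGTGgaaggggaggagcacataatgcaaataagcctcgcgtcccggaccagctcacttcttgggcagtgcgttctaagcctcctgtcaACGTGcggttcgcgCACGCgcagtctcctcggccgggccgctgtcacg
Egln3: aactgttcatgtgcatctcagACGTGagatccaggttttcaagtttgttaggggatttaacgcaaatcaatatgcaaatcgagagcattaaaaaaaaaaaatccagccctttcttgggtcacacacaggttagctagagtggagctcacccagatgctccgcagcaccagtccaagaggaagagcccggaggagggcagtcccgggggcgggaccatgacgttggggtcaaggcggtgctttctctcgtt
The window of *Egln1* held 2 cores, starting 126 and 68 bases before the gene, and that of *Egln2* held 4. The window of *Egln3* held a single ACGTG that started 229 bases before the gene. Of the 9 genes, 8 matched the RefSeq windows, all but *Epas1*, with 9 windows of which 7 held a core on either strand. Among all 32851 windows of the same length, 38.6% held a core, 16.6% ACGTG and 28.2% GCGTG. In the window of *Hif1a* a core on each strand overlapped, as CACGTG. A match of these letters is a description and not evidence of binding.

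*Egln1* (ENSMUSG00000031987.7; GRCm39 chromosome 8, 125635308 to 125676865) was at 9.32, 9.62 and 5.996 CPM in ControlΔEC replicates 1, 2 and 3 and at 5.09, 7.66 and 11.4 CPM in Wt1KOΔEC replicates 1, 2 and 3. Wt1KOΔEC libraries held both the lowest and the highest level. At 173 to 475 counts per library it was the least sampled of the 9 genes, and its log2 fold change of -0.05 (standard error 0.41, adjusted p = 0.982, edgeR) had a 95% interval from 0.509-fold to 1.84-fold. A change of moderate size in either direction was not detectable at this spread.

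*Egln2* (ENSMUSG00000058709.12; GRCm39 chromosome 7, 26853588 to 26866408) was at 60.5, 83.6 and 40.4 CPM in ControlΔEC replicates 1, 2 and 3. In Wt1KOΔEC replicates 1, 2 and 3 it was at 67.4, 71.3 and 57.6 CPM, all inside the ControlΔEC range. The fold change was 0.09 on the log2 scale (standard error 0.25, adjusted p = 0.940, edgeR) and lay between -0.14 without ControlΔEC replicate 3 and 0.37 without ControlΔEC replicate 2.

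*Egln3* (ENSMUSG00000035105.6; GRCm39 chromosome 12, 54225767 to 54250673) was at 9.96, 23.8 and 14.8 CPM in ControlΔEC replicates 1, 2 and 3. In Wt1KOΔEC replicates 1, 2 and 3 it was at 28.1, 39.9 and 32.04 CPM. Every Wt1KOΔEC library lay above every ControlΔEC library, and the nearest pair were ControlΔEC replicate 2 and Wt1KOΔEC replicate 1. Its log2 fold change of 1.04 (standard error 0.33) was the largest of the 9 in size and corresponds to 2.06-fold, with a 95% interval from 1.23-fold to 3.44-fold. The unadjusted p was 0.0111 and the adjusted p 0.251 (edgeR). DESeq2 gave an adjusted p of 0.0590, the lowest of its alternatives, which reached up to 0.508. The log2 fold change stayed positive with each library left out, from 0.79 (without ControlΔEC replicate 1) to 1.43 (without ControlΔEC replicate 2).

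Within each library, *Egln3* made up 29.6%, 42.8% and 48.4% of the counts per kb of the 3 prolyl hydroxylases in ControlΔEC replicates 1, 2 and 3, and 53.1%, 59.8% and 57.9% in Wt1KOΔEC replicates 1, 2 and 3. *Egln2* made up 62.1%, 51.9% and 45.7% in the same ControlΔEC libraries and 44.0%, 36.8% and 35.9% in the Wt1KOΔEC libraries. *Egln2* was thus the most abundant of the 3 per kb in 2 of 3 ControlΔEC libraries, and *Egln3* in all 3 Wt1KOΔEC libraries. By CPM not divided by length, *Egln2* was above *Egln3* in all 6 libraries. The share of *Egln3* was higher by 16.6 percentage points in Wt1KOΔEC (40.3 ± 9.67% against 56.9 ± 3.42%; exact permutation test, two-sided p = 0.1, the lowest possible with 3 against 3). Without ControlΔEC replicate 1, the library with the lowest share, the difference was 11.3 percentage points. Taken without division by length, the share of *Egln3* was 19.0 ± 5.95% in ControlΔEC and 31.1 ± 2.89% in Wt1KOΔEC. The sums of the fibroblast, endocardial and dissociation response genes were higher in all 3 Wt1KOΔEC libraries as well. Of these genes, 4 of 6, 3 of 4 and 7 of 12 were higher at an unadjusted p under 0.05 in edgeR (5.96% of all genes tested). Their part in the values of *Egln3* was not tested.

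*Vhl* (ENSMUSG00000033933.14; GRCm39 chromosome 6, 113600920 to 113608599) encodes the protein that recognises the hydroxylated alpha subunit. It was at 30.8, 29.8 and 24.1 CPM in ControlΔEC replicates 1, 2 and 3 and at 21.1, 31.9 and 24.2 CPM in Wt1KOΔEC replicates 1, 2 and 3. The ranges overlapped, with a log2 fold change of -0.13 (standard error 0.23, adjusted p = 0.890, edgeR). Its 95% interval ran from 0.632-fold to 1.32-fold. The processed pseudogene *Vhl-ps1*, which could share its reads, was listed at 0 counts in all 6 libraries.

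*Hif1an* (ENSMUSG00000036450.5; GRCm39 chromosome 19, 44551286 to 44568723) encodes FIH, an asparaginyl hydroxylase that blocks the binding of coactivators to the alpha subunit. It was at 38.1, 36.5 and 16.5 CPM in ControlΔEC replicates 1, 2 and 3 and at 17.5, 31.0 and 18.0 CPM in Wt1KOΔEC replicates 1, 2 and 3. ControlΔEC replicate 3 was the lowest of all 6 libraries. The fold change was -0.46 on the log2 scale (standard error 0.36, adjusted p = 0.683, edgeR), with a 95% interval from 0.414-fold to 1.28-fold, and ranged from -0.78 without Wt1KOΔEC replicate 2 to -0.26 without ControlΔEC replicate 1.

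**Figure D3:**
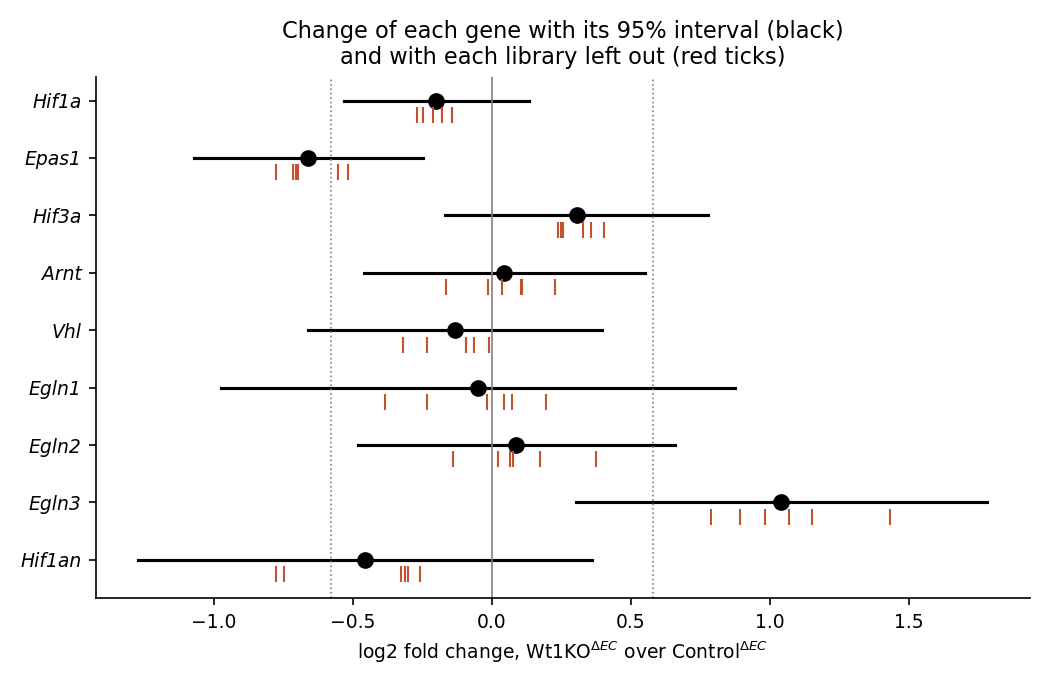
Log2 fold change (x axis, Wt1KOΔEC over ControlΔEC) of each gene with its 95% interval from edgeR in black, and the values with a library left out as red ticks; dotted lines mark the limit of 0.58 on either side. The intervals of *Epas1* (below 0) and *Egln3* (above 0) do not include 0, and the ticks of *Arnt*, *Egln1* and *Egln2* lie on both sides of 0.

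Of the annotated genes that overlap these 9, *Gm50008*, on the strand of *Epas1*, had at most 74 counts in a library, and each of the other overlapping genes that the table lists had at most 10. The library kit does not mark strand, so reads of antisense genes cannot be told apart from those of the 9 genes.

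The genes around the HIFs were read from 8 lists. The lists hold 120 genes found in the table, of which 117 were tested. The ubiquitin ligase that VHL belongs to was represented by *Elob*, *Eloc*, *Cul2* and *Rbx1*. Neither tool called any of the 4, and 1 had an unadjusted p under 0.05, *Elob*, the elongin B adaptor, at 43.3 ± 5.62 CPM in ControlΔEC and 62.1 ± 7.04 CPM in Wt1KOΔEC (log2 fold change 0.52, adjusted p = 0.280, edgeR). The scaffold *Cul2* was at 49.3 ± 11.9 and 48.2 ± 9.89 CPM. Of the 7 coactivators and CITED proteins, which compete for the same coactivators, none was a DEG in either tool and none had an unadjusted p under 0.05. The histone acetyltransferase *Ep300* had the lowest log2 fold change among those with at least 10 CPM, -0.27 (standard error 0.21), and *Ncoa3* the highest, 0.11 (standard error 0.30).

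Among the bHLH-PAS proteins, the family to which ARNT and the alpha subunits belong, 9 of 12 were tested, with no call by either tool. At an unadjusted p under 0.05, 2 were lower in Wt1KOΔEC. The dioxin receptor *Ahr*, which also pairs with ARNT, was at 27.0 ± 10.3 CPM in ControlΔEC and 13.5 ± 3.48 CPM in Wt1KOΔEC (log2 fold change -0.998, adjusted p = 0.278, edgeR). Its ranges overlapped because ControlΔEC replicate 3, at 15.53 CPM, lay below Wt1KOΔEC replicate 2, at 17.07 CPM. *Clock* was at 36.2 CPM in ControlΔEC and 20.7 CPM in Wt1KOΔEC. Its partner *Arntl* had the highest log2 fold change of the family among genes of at least 10 CPM, 0.37 (standard error 0.26). *Arnt2*, the closest paralog of *Arnt*, was at 1.77 ± 1.93 CPM in ControlΔEC and 1.54 ± 1.53 CPM in Wt1KOΔEC.

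Of 12 other regulators of HIF alpha stability or output, none was a DEG in edgeR and 1 had an unadjusted p under 0.05. This was *Rptor*, which encodes the raptor subunit of mTORC1, at 57.2 ± 7.56 CPM in ControlΔEC and 34.4 ± 7.48 CPM in Wt1KOΔEC (log2 fold change -0.73, standard error 0.21, adjusted p = 0.224 in edgeR and 0.0331 in DESeq2). The chaperone *Hsp90aa1*, to which the alpha subunits bind, was at 1285 ± 241 and 1624 ± 283 CPM, with overlapping ranges. Of 16 other oxygen-dependent dioxygenases, such as the histone demethylases and TET enzymes, none was a DEG in either tool or had an unadjusted p under 0.05. The histone demethylase *Kdm6a* had the lowest log2 fold change, -0.60 (standard error 0.29), and the collagen prolyl hydroxylase *P4ha3* the highest, 0.87 (standard error 1.35), with levels from 0 to 29.3 CPM in ControlΔEC libraries.

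Nearly all glycolytic genes known as HIF targets had higher mean levels in Wt1KOΔEC. Of 20 tested, 19 had a positive log2 fold change, 13 had every Wt1KOΔEC library above every ControlΔEC library (10.4% of all genes tested did), and 11 were higher at an unadjusted p under 0.05 (5.96% of all genes tested). Their median log2 fold change was 0.45. Standard errors in the list ran from 0.14 to 1.68 and most were below the median of 0.39 over all genes tested. The shares over all genes are thus not those of genes alike in precision. By edgeR 1 was a DEG, *Eno1*, and by DESeq2 6 were, *Eno1*, *Tpi1*, *Pdk1*, *Slc16a3*, *Pfkfb3* and *Pkm*. All were higher, as were 0.0491% of all genes tested by edgeR and 2.20% by DESeq2. *Eno1*, which encodes enolase, was at 405, 412 and 365 CPM in ControlΔEC replicates 1, 2 and 3 and at 1348, 1144 and 1033 CPM in Wt1KOΔEC replicates 1, 2 and 3 (log2 fold change 1.58, adjusted p = 0.0152, edgeR). Reads of *Eno1* can be shared with its retrogene *Eno1b*, which was at 425 to 522 CPM in ControlΔEC and 331 to 428 CPM in Wt1KOΔEC. The sum of both ran from 790.2 to 927 CPM in ControlΔEC and from 1364 to 1776 CPM in Wt1KOΔEC, a smaller ratio than that of *Eno1* alone and still without overlap. The glycolytic list without *Eno1* summed to between 6926 and 7876 CPM in ControlΔEC and between 9144 and 11015 CPM in Wt1KOΔEC libraries, again with no overlap. *Pdk1*, a kinase that keeps pyruvate out of the mitochondria, was at 45.1 ± 10.6 and 77.9 ± 11.8 CPM (log2 fold change 0.79, adjusted p = 0.209, edgeR). *Slc2a1*, the main glucose transporter of ECs, was at 139.5 ± 12.7 CPM in ControlΔEC and 158 ± 4.74 CPM in Wt1KOΔEC, and *Pfkp* had the only negative log2 fold change of the list, -0.21 (standard error 0.15). Without Wt1KOΔEC replicate 1, which had the highest sum of the list, 7 of the 20 had an unadjusted p under 0.05. Fewer of all genes tested had one then too, 1339 of 15884 against 2131 of 16296 with all libraries. Genes of the dissociation response and the fibroblast and endocardial markers also had higher sums in all 3 Wt1KOΔEC libraries, as given above. Their part in these values was not tested.

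**Figure D4:**
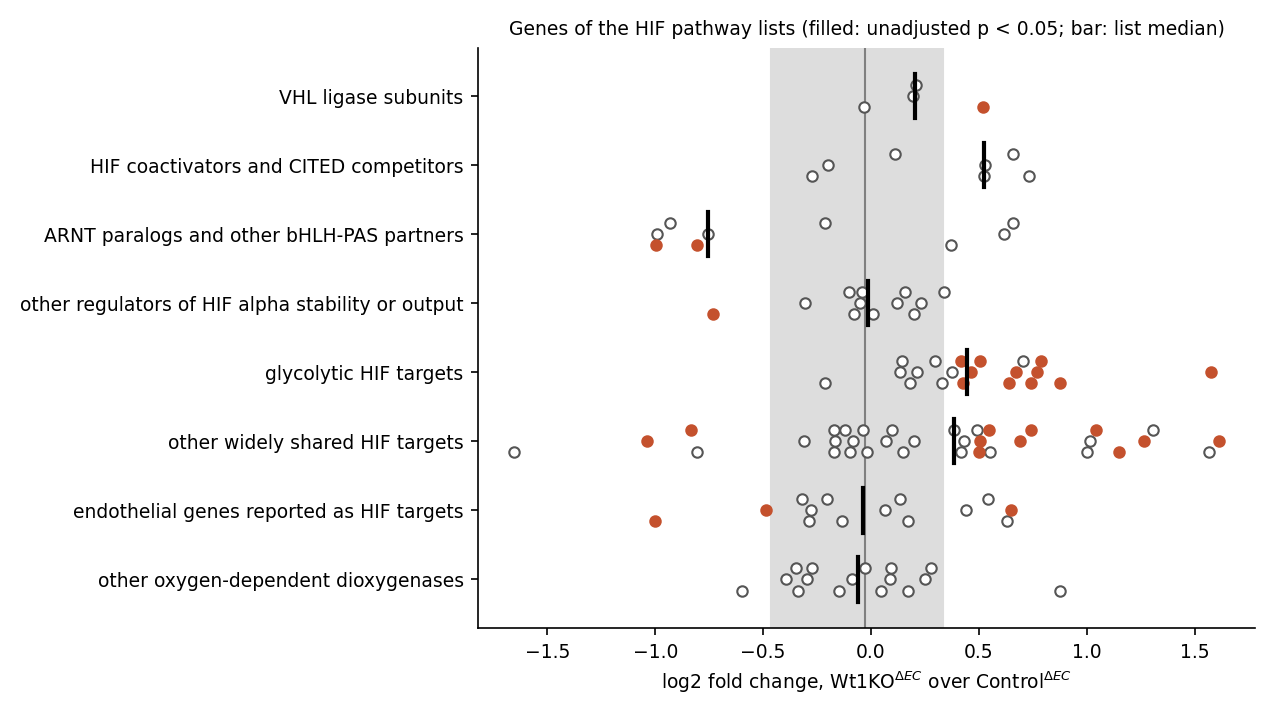
Log2 fold change (x axis, Wt1KOΔEC over ControlΔEC) of every tested gene in the 8 lists; filled points have an unadjusted p under 0.05 in edgeR, black bars are list medians, the grey line is the median and the grey band the middle 50% of all genes tested. Of the glycolytic targets, 11 of 20 points are filled and all 11 lie to the right of 0, while the endothelial targets and the dioxygenases are centred near the median of all genes.

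Other HIF targets shared by many tissues were less uniform. Of 35 tested, 22 had a positive and 13 a negative log2 fold change, with a median of 0.38. At an unadjusted p under 0.05, 9 were higher and 2 lower in Wt1KOΔEC, where 5.96% of all genes tested were higher and 7.12% lower. Every Wt1KOΔEC library lay above every ControlΔEC library for 12 and below for 2 (10.4% and 8.95% of all genes tested). DESeq2 called 5, *Mif*, *Ddit4*, *Loxl2* and *Fam162a* as higher and *Hmox1* as lower (2.20% and 2.63% of all genes it tested). *Mif*, which encodes a cytokine, was the only DEG in edgeR, at 90.4, 88.6 and 96.7 CPM in ControlΔEC replicates 1, 2 and 3 and at 225, 194 and 192 CPM in Wt1KOΔEC replicates 1, 2 and 3 (log2 fold change 1.147, adjusted p = 0.0441). *Ddit4*, an inhibitor of mTORC1, was at 5.41, 7.38 and 9.50 CPM in ControlΔEC replicates 1, 2 and 3 and at 23.2, 21.0 and 23.97 CPM in Wt1KOΔEC replicates 1, 2 and 3. This is a log2 fold change of 1.61 (standard error 0.29, adjusted p = 0.108 in edgeR and 1.63e-05 in DESeq2). *Hmox1*, heme oxygenase, was lower in every Wt1KOΔEC library, at 373 ± 60.7 CPM against 666 ± 144 CPM (log2 fold change -0.84, adjusted p = 0.174 in edgeR and 0.00367 in DESeq2). All 6 macrophage markers had negative log2 fold changes too, 4 of them at an unadjusted p under 0.05 in edgeR (7.12% of all genes tested). Their part in the values of *Hmox1* was not tested. *Ccng2* had the lowest log2 fold change among genes of at least 10 CPM, -1.04 (standard error 0.37). *Ak4*, *P4ha1* and *Bnip3* had log2 fold changes of 1.04, 0.55 and 0.50 (unadjusted p = 0.0117, 0.0139 and 0.0418, edgeR), though none was a DEG in either tool. Some other genes often used to read HIF activity had mean levels close to each other in the 2 genotypes. *Ndrg1* was at 373 ± 34.96 and 391 ± 25.7 CPM, *Kdm3a* at 90.7 ± 16.1 and 89.6 ± 15.48 CPM, and *Adm* at 27.7 ± 3.54 and 24.6 ± 6.31 CPM in ControlΔEC and Wt1KOΔEC. *Vegfa* was scarce in these cells, at 1.73 ± 1.11 CPM in ControlΔEC and 0.991 ± 0.320 CPM in Wt1KOΔEC. With single libraries left out, between 8 (without ControlΔEC replicate 1 and also without Wt1KOΔEC replicate 3) and 14 genes (without ControlΔEC replicate 3) of this list had an unadjusted p under 0.05. In these settings, in the same order, 2011 of 15918, 1531 of 15935 and 2456 of 15675 of all genes tested had one.

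Of 14 endothelial genes reported as HIF targets, including several described for HIF-2 alpha, 7 had a positive and 7 a negative log2 fold change, with a median of -0.04. At an unadjusted p under 0.05 there were 3, 1 higher and 2 lower, against 13.1% of all genes tested. By adjusted p, edgeR called none of the 14 and DESeq2 called 1, *Apln*, as lower (2.63% of all genes it tested). *Apln*, a peptide ligand of sprouting ECs, was at 140.4 ± 27.9 CPM in ControlΔEC and 70.2 ± 11.8 CPM in Wt1KOΔEC (log2 fold change -0.9997, standard error 0.20, adjusted p = 0.114, edgeR). *Esm1*, another gene of sprouting cells, had the highest log2 fold change, 0.65 (standard error 0.27), and its libraries overlapped. The VEGF receptor *Kdr* was at 1136 ± 93.3 and 931 ± 66.4 CPM, and *Flt1* at 686 ± 80.0 and 774 ± 48.7 CPM, in ControlΔEC and Wt1KOΔEC. With single libraries left out, between 1 (without Wt1KOΔEC replicate 1 and also without Wt1KOΔEC replicate 3) and 3 genes of this list had an unadjusted p under 0.05. Without Wt1KOΔEC replicate 1 and without Wt1KOΔEC replicate 3, 1339 of 15884 and 1531 of 15935 of all genes tested had one.

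Genes whose pattern over the 6 libraries was most like that of *Hif1a* and *Egln3* were sought among 8469 genes with at least 10 CPM, by Pearson's r of log2 CPM. They were *Pbk*, *Zfp827* and *Trim33* for *Hif1a* (r = 0.994 to 0.987) and *Bace2*, *Abhd8* and *Ahcyl1* for *Egln3* (r = 0.988 to 0.983). The 6 points share their genotype and library, and 27 genes reached an r above 0.95 with *Hif1a* and 24 with *Egln3*, so these values describe the libraries and no more.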

How the data were processed

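RNA-Seq libraries of mGFP-sorted coronary ECs were analysed, 3 of ControlΔEC and 3 of Wt1KOΔEC, grouped by the sample labels. The authors made SMART-seq2 libraries, aligned the reads with STAR 2.7.8a and estimated gene counts with RSEM 1.3.0 on GENCODE vM27; the deposited table holds the expected counts of RSEM as whole numbers and not normalized. The paper names GRCm39 and the submitters' processing notes name GRCm38. Of 55416 gene IDs, 54749 were found in GENCODE vM39 on GRCm39, from which positions and exonic lengths were taken. Amplified reads carry no molecular identifiers, so depth covers counting error only.

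Genes that reached 10 counts in 2 or more libraries were tested in R 4.3.3 with edgeR 4.0.16 (TMM, quasi-likelihood F test, Benjamini-Hochberg adjustment over all genes tested). Standard errors were derived as the absolute log2 fold change divided by the root of F. Alternatives were DESeq2 1.42.0 (the study's tool) on the whole table, limma-voom (limma 3.58.1), other normalizations and filters, no fold change limit, the replicate number as a block and each library left out. Within-library ratios were compared by exact permutation tests. Fits were tested on simulated data. The labels name replicates as biological without saying how many embryos each holds.

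The members and gene lists were chosen with earlier results of these data known. Named are the 9 genes, *Wt1*, every DEG of a list and its genes with the highest and lowest log2 fold change at a mean of at least 10 CPM. *Clock*, *Arnt2*, *Pdk1*, *Slc2a1*, *Hmox1*, *Ak4*, *P4ha1*, *Bnip3*, *Ndrg1*, *Kdm3a*, *Adm*, *Vegfa*, *Kdr*, *Flt1*, the DESeq2 calls and the mural markers were added after their values were seen, as were the counts of list genes with a library left out. The genes most like *Epas1* over the libraries are not reported here.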

Additional observations from a re-analysis of the deposited data

How the results depend on the processing

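By edgeR 12 of the genes tested were DEGs. There were 767 with DESeq2, 296 without a filter on low counts, 113 with at least 10 counts in every library, 5 with the replicate number as a block, and 2 to 37 with single libraries left out. None of the 9 HIF and oxygen-sensing genes was a DEG in edgeR under any of these settings or in limma-voom, and 1 was in DESeq2, *Epas1* (log2 fold change -0.66). With DESeq2, which called 4.83% of all genes it tested, 6 of the glycolytic targets, 5 of the other widely shared targets, 1 of the endothelial targets and 1 of the other regulators were DEGs.

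The directions of *Hif1a*, *Epas1*, *Hif3a*, *Vhl*, *Egln3* and *Hif1an* were the same in all 14 alternatives. *Arnt* was at -0.12 with library size only, -0.17 without ControlΔEC replicate 1 and -0.01 without Wt1KOΔEC replicate 2, *Egln2* at -0.072 with library size only and -0.14 without ControlΔEC replicate 3, and *Egln1* at 0.04 and 0.07 without ControlΔEC replicates 1 and 2 and 0.20 without Wt1KOΔEC replicate 1; the cause was not tested. Scaling by library size only moved the median log2 fold change of all genes to -0.18, and *Arnt* and *Egln2* were above that median. Over the libraries left out, *Arnt* ranged from -0.17 to 0.23, *Egln1* from -0.38 to 0.20 and *Egln2* from -0.14 to 0.37. With single libraries left out, the difference in log2 ratio of *Epas1* to *Hif1a* lay between -0.65 and -0.30 and that in the share of *Egln3* between 11.3 and 20.7 percentage points, or 12.1 with counts not divided by length.

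Same-numbered libraries had deviations correlated at 0.0316 to 0.0514, under the 0.1 taken to show pairing. Each library still correlated best with its own number, and the other pairs were at -0.0364 to -0.0115. This check therefore cannot show that pairing is absent. With the replicate block the log2 fold change of *Epas1* was -0.67 and that of *Egln3* 1.12 (adjusted p = 0.198 and 0.205, edgeR), and no call among the 9 changed. *Egln1*, at 173 to 475 counts, is the gene that depth limits most.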
